A study of Mus musculus with 3 samples.

Results

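Conventional dendritic cells 1 (cDC1) were 156 of the 40492 cells kept from healing mouse skin wounds: the Day 3 library held 11 of them among 4452 cells, that of Day 7 held 74 among 21568 and that of Day 14 held 71 among 14472. Days are counted from injury, and single-cell RNA-seq had been run on skin wounds of male wild-type C57BL/6J mice aged 7 to 12 weeks, with no treatment and no unwounded group among the libraries; the labels speak of incisional injury, while the methods describe full-thickness punch wounds in the back. Each day was 1 library, made from tissue pooled from 4 samples that was freed into cells with enzymes and cleared of red cells and debris. The day, the pool, the dissociation and the library therefore cannot be told apart, and no test between days was possible. None was run between cell groups either, which came from the same libraries and were chosen on their own gene levels. Every interval below is an exact 95% interval for counting error only. Those of levels, shares and ratios between cell groups were computed within a library, and those of ratios between days from the libraries of both days. A difference outside an interval may still be a difference between pools.

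Dendritic cells take up antigen and show it to T cells. The cDC1 branch depends on the transcription factors IRF8, BATF3 and ID2, carries the chemokine receptor XCR1 and the dead-cell receptor CLEC9A, and is known for cross-presentation, the display of engulfed antigen on MHC class I to CD8 T cells. The other conventional branch, cDC2, uses IRF4 and ZEB2, carries SIRPA and the lectins CD209A, MGL2 and CLEC10A, and mainly displays antigen on MHC class II. In mouse skin part of the dermal cDC1 also carry langerin, the product of Cd207, and integrin alpha E, the product of Itgae.

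A cell was taken as cDC1 when it held at least 1 unique molecular identifier (UMI, 1 counted RNA molecule) of Xcr1 or Clec9a, when H2-Aa, H2-Ab1 and H2-Eb1 (MHC class II chains) made up at least 0.5% of its UMIs, and when C1qa, C1qb and C1qc (macrophage complement genes) stayed below 0.3% and the fibroblast genes Dcn and Col1a2 below 0.5%. It could hold at most 1 UMI of Cd209a and none of Ccr7, the receptor of mature migrating dendritic cells. The comparison group, called the reference, was the 742 cells with the same class II level and at least 2 UMIs of Cd209a, a cDC2 gene (95, 310 and 337 cells on Days 3, 7 and 14). In the mm10 assembly with GENCODE M21 genes, Xcr1 lies at chr9:123852315-123862029 on the minus strand, Clec9a at chr6:129408862-129424763 on the plus strand and Cd209a at chr8:3743397-3748984 on the minus strand.

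Of 274 kept cells with an Xcr1 or Clec9a UMI, 226 passed the class II limit, 205 then the C1q limit, 184 the Dcn and Col1a2 limit, 175 the Cd209a limit and 156 the Ccr7 limit. The receptors that chose the cells were sparse in them: 81 members held 1 UMI of the pair and 75 held 2 or more, with 52 showing only Xcr1, 63 only Clec9a and 41 both. At the class II limit the nearest member stood at 0.535% of UMIs and the nearest cell left out at 0.474%, both on Day 7, against medians of 1.90%, 2.17% and 3.70% in the members of the 3 days. At the C1q limit the nearest member stood at 0.295% and the nearest cell left out at 0.470%. At the Dcn and Col1a2 limit these were 0.338% and 0.550%. In cells that should lack the receptors, an Xcr1 or Clec9a UMI was seen in 0 of 461, 0.187% and 0.112% of fibroblasts and in 0 of 1090, 0.187% and 0.449% of C1q macrophages over the 3 days, at median depths of 9882 UMIs in fibroblasts and 2903 in macrophages on Day 7.

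The members had a median of 7365, 3759 and 5709 UMIs per cell on Days 3, 7 and 14, next to 8271, 3783 and 5157 in the reference, and summed to 91081, 295843 and 408953 UMIs. With 11 cells, Day 3 is given by values alone, and counts of genes use Days 7 and 14. The libraries shared 43, 19 and 111 barcodes pairwise (Days 3 and 7, Days 3 and 14, Days 7 and 14), and 1 member had a barcode that another library also held. A doublet caller marked 0, 2 and 2 members and 2, 50 and 32 reference cells, beside 2.07%, 9.17% and 6.65% of all kept cells; on Day 3 the median doublet score was 0.52 in members and 0.32 in kept cells. Without the marked cells 85 genes were higher and 161 lower in cDC1 than in the reference, in place of the 93 and 247 found with them.

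The label was looked at in genes that the rule did not use, as a description. The 5 such genes counted cell by cell were Irf8, Naaa, Wdfy4, Batf3 and Itgae, all cDC1 genes, chosen after their values had been seen. At least 3 of the 5 were detected in 128 of 156 members (82.1%), in 76 of 742 reference cells (10.2%), in 6.81% of the 529 class II cells with 2 or more Ccr7 UMIs, in 3.20% of 9966 C1q macrophages and in 0.346% of 16487 fibroblasts. Members chosen by a single receptor UMI reached this in 59 of 81 cells (72.8%) and those with 2 or more in 69 of 75 (92.0%) (median depths of 3746 and 3835 UMIs on Day 7 and 5010 and 5884 on Day 14). Of the members, 5 showed none of the 5 genes and 12 showed 1. Among 2466 cells that met every criterion but had no Xcr1 or Clec9a UMI, 207 (8.39%) carried at least 3 of the 5 genes. By day these were 14.4%, 6.59% and 9.76%, below the reference on Days 3 and 7 (26.3% and 8.06%) and above it on Day 14 (7.72%), at median depths of 2693 against 3783 UMIs on Day 7 and 4408 against 5157 on Day 14. Membership turned on catching 1 receptor molecule, so how many cDC1 lay outside the rule is not known.

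**Figure D1:**
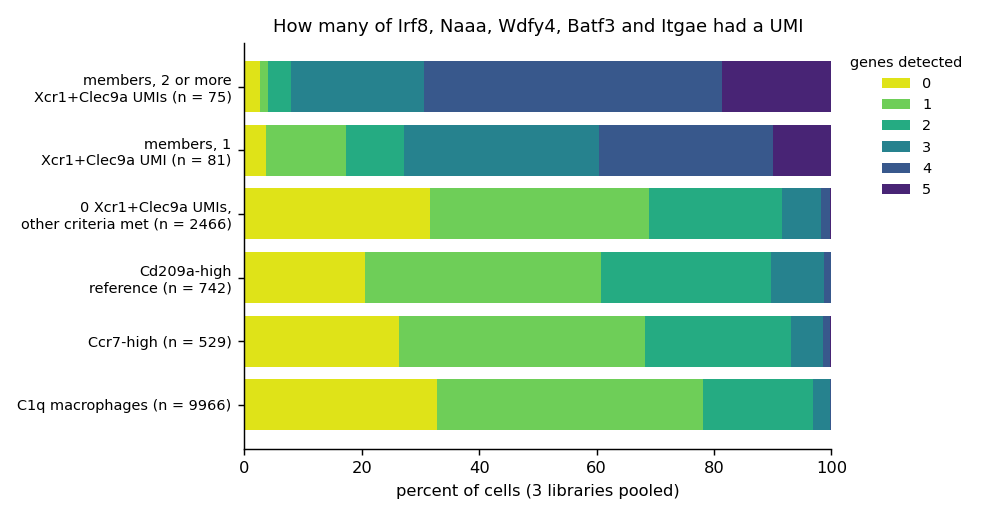
Stacked bars of the percent of cells (3 libraries pooled) in which 0 to 5 of Irf8, Naaa, Wdfy4, Batf3 and Itgae had a UMI, for 6 groups of cells with their numbers. Dark shades (3 or more genes) fill 92.0% and 72.8% of the member bars and 8.39% or less in the cells with no receptor UMI, the Ccr7-high cells and the macrophages, with the reference at 10.2%.

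By the rule, cDC1 were 0.247% of kept cells on Day 3 (0.123 to 0.442), 0.343% on Day 7 (0.270 to 0.431) and 0.491% on Day 14 (0.383 to 0.618). These shares moved by over 1.5 times with the rule: Day 3 stood at 0.0864% with a mitochondrial limit of 5%, and Days 7 and 14 at 0.139% and 0.263% with 2 or more receptor UMIs. The Day 14 share was 1.43 times that of Day 7 (1.02 to 2.01). The Day 14 cells were deeper, and the order did not stay once the Xcr1, Clec9a and Cd209a counts of each cell were thinned to a common depth. At 1000 UMIs, with 561, 2646 and 672 shallower kept cells left out, the shares were 0.103%, 0.180% and 0.174%. At 2000 UMIs they were 0.168%, 0.286% and 0.285%. The other limits, with Ccr7 at 0 among them, were still read at full depth, and thinning could bring a cell under the Cd209a limit. With these counts thinned, Days 7 and 14 could not be told apart. Of cDC1 and reference cells together, cDC1 made up 10.4% on Day 3 (5.30 to 17.8), 19.3% on Day 7 (15.4 to 23.6) and 17.4% on Day 14 (13.8 to 21.4), with overlapping intervals. Thinned to 1000 UMIs these were 9.76% (2.72 to 23.1), 29.6% (21.4 to 38.8) and 18.5% (12.2 to 26.2), and thinned to 2000 UMIs 7.35%, 21.0% and 15.5%, so the Day 7 value moved with depth by over 1.5 times.

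**Figure D2:**
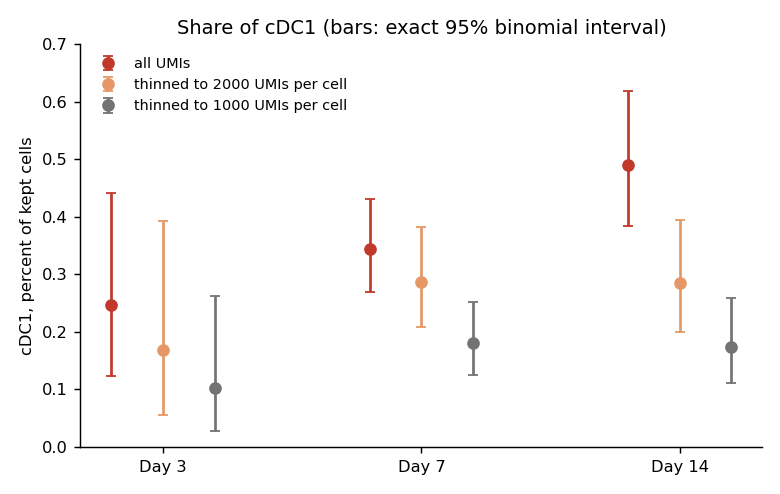
Share of cDC1 among kept cells on each day (percent, 1 library per day) with exact 95% binomial intervals. Shares are from all UMIs and after thinning the Xcr1, Clec9a and Cd209a counts of each cell to a depth of 2000 or 1000 UMIs. From all UMIs the points run 0.247, 0.343 and 0.491, while after thinning those of Days 7 and 14 lie level, at 0.286 and 0.285 or 0.180 and 0.174.

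The transcription factors of the cDC1 branch were higher in cDC1 than in the reference. Levels are in CPM, the UMIs of a gene over the cells of a group in a library per 1000000 UMIs of those cells. Irf8, at chr8:120736358-120756694 on the plus strand, stood at 2064, 1849 and 1298 CPM in cDC1 on Days 3, 7 and 14 and at 160, 122 and 61.3 CPM in the reference. It was detected in 11 of 11, 65 of 74 and 61 of 71 members, and the log2 ratio of cDC1 over reference was 3.92 on Day 7 (3.68 to 4.17) and 4.40 on Day 14 (4.12 to 4.70). Id2, an inhibitor of E-protein factors, stood at 1702, 869 and 1020 CPM against 509, 201 and 236 CPM. Batf3, at chr1:191097847-191108945 on the plus strand, was lower in level, at 176, 169 and 90.5 CPM against 32.3, 34.4 and 39.1 CPM, with log2 ratios of 2.30 (1.70 to 2.89) and 1.21 (0.61 to 1.79), of which the Day 14 value was 0.98 when the reference cells were held to the members' own limits on other RNA. All 3 factors were higher in cDC1 in every library. Zeb2 went the other way, at 110, 189 and 41.6 CPM in cDC1 against 908, 601 and 503 CPM in the reference.

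Across the 2575 genes with a mean of at least 50 CPM over both groups on Days 7 and 14, with the 12 genes of the rule left out and technical genes kept in, 93 (3.61%) were 2-fold or more higher in cDC1 on both days and 247 (9.59%) were 2-fold or more lower. The median log2 ratio of all 2575 was -0.04. On Day 3, in 11 cells, 83 of the 93 higher genes had the same sign and 3 had no ratio, and 173 of the 247 lower genes had the same sign and 36 had no ratio. A group at 0 UMIs was set to 3 counts, which is 32.9 CPM in the Day 3 cDC1. Cald1 and Dpt, at 0 UMIs there and 6.46 and 7.75 CPM in the reference, so got log2 ratios of 2.35 and 2.09. These are upper bounds, so a lower gene without the same sign need not have been higher in cDC1. The reference was not held to the limits on fibroblast, macrophage and Ccr7 RNA that the members had to meet, and its summed fibroblast markers stood at 23786 CPM on Day 7 and 21258 CPM on Day 14, against 2346 and 2140 CPM in cDC1. Held to the same limits and with no Xcr1 or Clec9a UMI, 502 reference cells were left (the trimmed reference), and against them 81 genes were higher and 154 lower, of 2524.

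Of 23 cDC1 identity genes measured, 17 reached the level asked for and 15 of these were 2-fold or more higher in cDC1 on both days (3.61% of all genes tested), with none lower and a median log2 ratio of 2.78. The trimmed reference gave 14 of 17 (81 higher of all 2524 genes tested). The list was put together with cDC1 biology and earlier results of these data in view, and genes such as Itgae and Tlr3 reached the asked level through cDC1 alone, so the count describes the members and supports nothing further. Itgae, whose product binds E-cadherin on epithelium, stood at 132, 159 and 112 CPM in cDC1 on Days 3, 7 and 14 and at 1.29, 4.72 and 0.495 CPM in the reference. Its log2 ratio was 5.07 on Day 7 (3.92 to 6.46) and 7.83 on Day 14 (5.28 to 13.2), the latter against a single reference UMI. Tlr3, the endosomal sensor of double-stranded RNA, stood at 132, 149 and 53.8 CPM against 12.9, 7.42 and 1.98 CPM, with log2 ratios of 4.33 (3.35 to 5.43) and 4.77 (3.21 to 6.76). Cadm1, an adhesion molecule that binds CRTAM on T cells, stood at 10.98, 77.7 and 198 CPM against 0, 5.39 and 18.3 CPM. In Itgae, Tlr3 and Cadm1 the cDC1 value lay above the reference value in each library, though on Day 3 the Cadm1 value rested on 1 cell and 9 of the 12 Itgae UMIs came from 1 cell.

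The other genes of the list named here had varied functions. Wdfy4, needed in mice for cross-presentation of cell-bound antigen, at chr14:32959547-33185508 on the minus strand, stood at 692, 581 and 438 CPM in cDC1 and at 78.8, 78.2 and 46.0 CPM in the reference. Ppt1, a lysosomal thioesterase, stood at 714, 777 and 758 CPM against 137, 90.4 and 63.3 CPM, nearly level over the days in cDC1. Sept3 (a septin) stood at 384, 287 and 223 CPM against 22.0, 37.1 and 23.7 CPM. Btla, an inhibitory receptor, stood at 220, 122 and 63.6 CPM against 7.75, 16.2 and 7.91 CPM. Every one of these 4 was higher in cDC1 in each library. Naaa, an acid amidase named here after its values were seen, stood at 3239, 1328 and 929 CPM against 407, 261 and 338 CPM, with log2 ratios of 2.35 (2.14 to 2.55) and 1.46 (1.27 to 1.64). Flt3, the receptor of the cytokine that sustains dendritic cells and a marker of the label, stood at 593, 233 and 137 CPM against 240, 93.1 and 46.0 CPM, and was detected in 10 of 11, 46 of 74 and 33 of 71 members. Flt3 fell short of 2-fold against the trimmed reference on at least 1 of the 2 days, with a mean log2 ratio of 1.16 in place of 1.45.

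**Figure D3:**
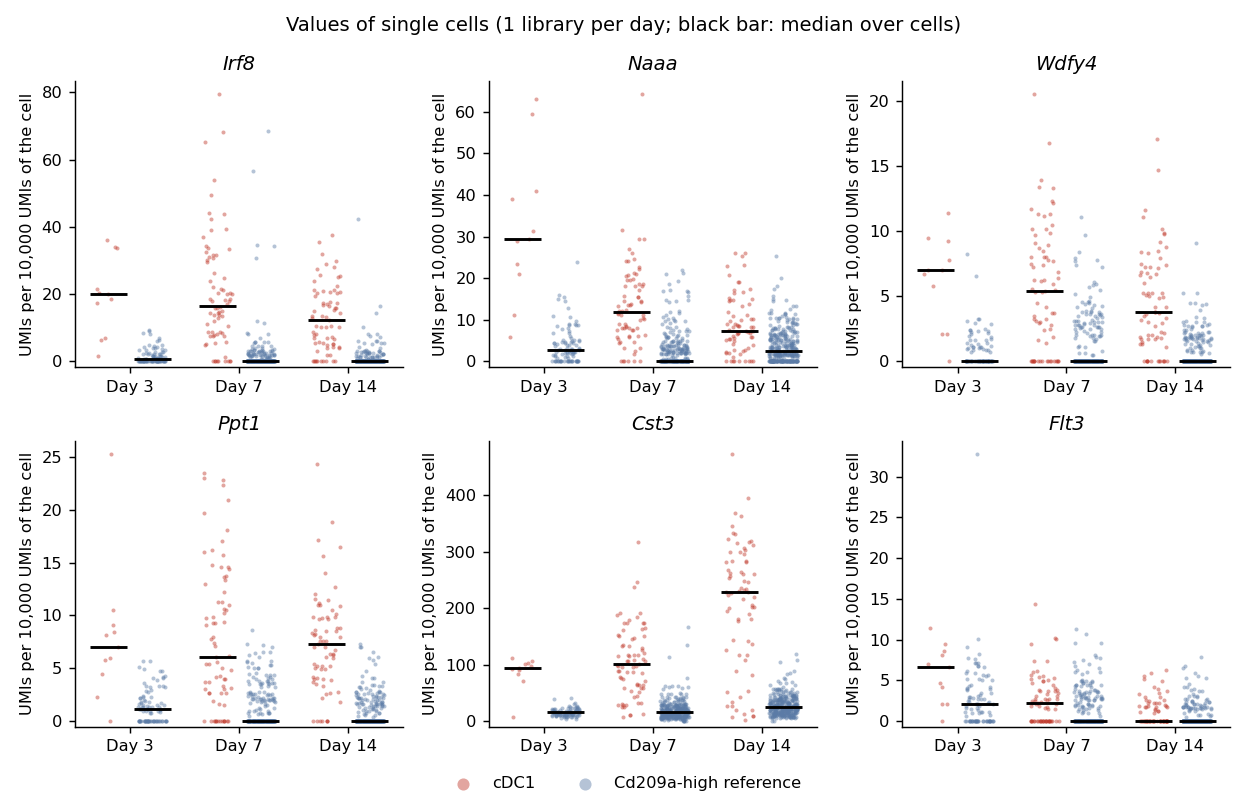
Each point is a cell, with its UMIs of Irf8, Naaa, Wdfy4, Ppt1, Cst3 or Flt3 per 10000 of its UMIs, by day, for cDC1 and the Cd209a-high reference, and the black bar is the median over cells. The cDC1 medians of Cst3 are 94.6, 101 and 229 against 15.5, 16.4 and 24.5, and those of Irf8 are 20.04, 16.6 and 12.3 against 0.670, 0 and 0, while Flt3 overlaps widely and has a median of 0 in cDC1 on Day 14.

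Single cells spread widely around these sums. On Day 7 the members ran from 0 to 79.4 Irf8 UMIs per 10000 UMIs with a median of 16.6, and 9 of 74 had none. On Day 14 they ran from 0 to 37.6 with a median of 12.3, and 10 of 71 had none. The reference had a median of 0 on both days, with 234 of 310 and 278 of 337 cells at 0, and single cells as high as 68.7 and 42.5. Thinned to 1000 UMIs, Irf8 was detected in 75% of cDC1 on Day 7 (63.4 to 84.5) and 70.0% on Day 14 (57.9 to 80.4), against 7.79% and 5.34% of the reference and 1.54% and 0.610% of fibroblasts. C1q macrophages also carried Irf8, in 23.5% and 20.9% of thinned cells. Itgae at the same depth was found in 9.72% (3.999 to 19.0) and 5.71% (1.58 to 14.0) of cDC1 and in at most 0.325% of the reference, the macrophages and the fibroblasts on those days.

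The 12 genes with the highest mean log2 ratio were Itgae, Tlr3, Irf8, Cadm1, Tbc1d8, Ppt1, Trim35, Sept3, Wdfy4, Btla, Cst3 and Kit, and 8 of these belonged to the cDC1 list. The other 4 were Cst3, Kit, Tbc1d8 and Trim35. Cst3, the secreted cathepsin inhibitor cystatin C, at chr2:148871722-148875692 on the minus strand, stood at 8948, 11019 and 22325 CPM in cDC1 and at 1582, 1843 and 2606 CPM in the reference, and every one of the 156 members held a UMI of it. Its log2 ratio was 2.58 on Day 7 (2.51 to 2.65) and 3.099 on Day 14 (3.05 to 3.15). Kit, the stem cell factor receptor, stood at 296, 186 and 117 CPM against 149, 47.9 and 9.40 CPM, with log2 ratios of 1.96 (1.42 to 2.49) and 3.64 (2.85 to 4.49). Tbc1d8, a Rab GTPase-activating protein family member, stood at 406, 149 and 127 CPM against 15.5, 14.2 and 9.40 CPM. Trim35, a TRIM family member, stood at 560, 345 and 274 CPM against 12.9, 33.7 and 38.1 CPM. Class II cells with 2 or more Ccr7 UMIs also carried these 4 genes, at lower levels than cDC1. There Tbc1d8 stood at 77.7, 93.8 and 96.0 CPM and Kit at 279, 77.4 and 37.0 CPM. Trim35 stood at 29.3, 72.2 and 115 CPM and Cst3 at 2489, 3217 and 8138 CPM. The mast cell markers Cpa3 and Mcpt4 summed with 3 others to 0, 2 and 0 UMIs in the members, beside the Kit values.

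**Figure D4:**
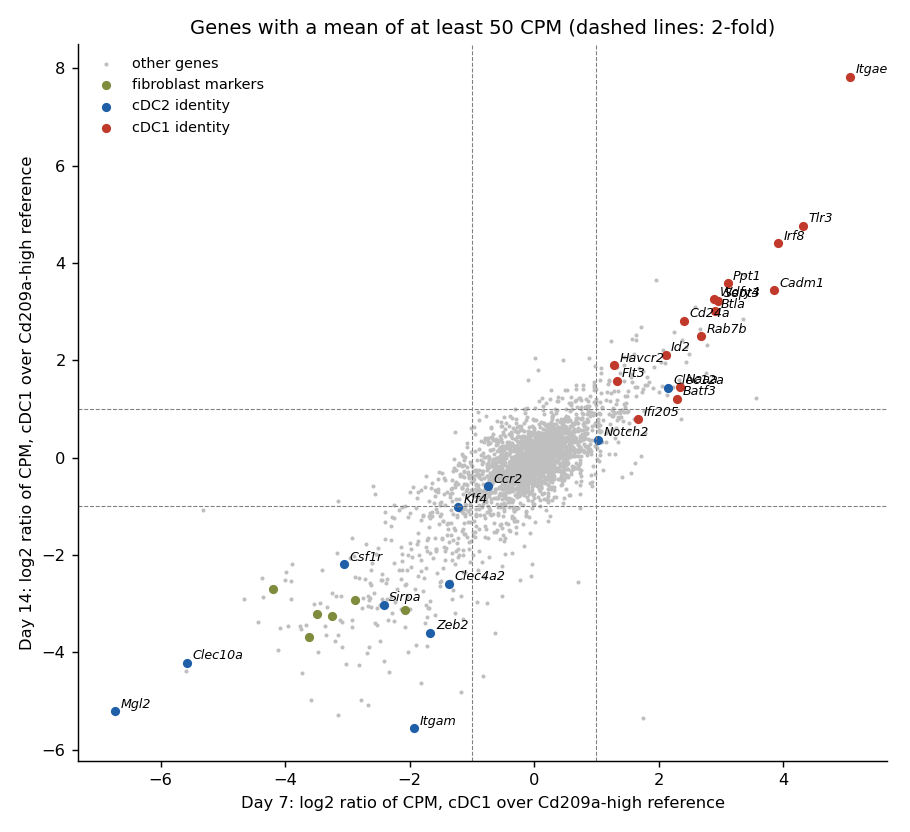
Log2 ratio of CPM in cDC1 over the Cd209a-high reference on Day 7 (x) and Day 14 (y) for genes with a mean of at least 50 CPM and a ratio on both days; a group at 0 UMIs was set to 3 counts. Every cDC1 identity gene plotted lies on the positive side of both axes, most cDC2 identity genes and all 6 tested fibroblast markers on the negative side, and dashed lines mark 2-fold.

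Of 14 cDC2 identity genes measured, 11 were tested, 8 were 2-fold or more lower in cDC1 on both days (9.59% of all genes tested) and 1 was higher, with a median log2 ratio of -2.63. The trimmed reference gave 8 lower and 1 higher of 12 (154 lower and 81 higher of all 2524 genes tested). Since the reference was chosen on the cDC2 gene Cd209a, these values describe the gate. Mgl2, a galactose-binding lectin, stood at 10.98, 6.76 and 41.6 CPM in cDC1 on Days 3, 7 and 14 and at 400, 719 and 1537 CPM in the reference. Clec10a, its close relative, stood at 10.98, 6.76 and 9.78 CPM against 619, 323 and 182 CPM. Mgl2 and Clec10a are close paralogs, and reads could be split between them. Sirpa, the receptor of the signal CD47, stood at 0, 60.8 and 19.6 CPM against 412, 326 and 159 CPM. Itgam, integrin alpha M, stood at 43.9, 50.7 and 2.45 CPM against 473, 193 and 115 CPM. Csf1r, the receptor of macrophage colony-stimulating factor, stood at 10.98, 20.3 and 26.9 CPM against 203, 169 and 123 CPM. Mgl2, Clec10a, Sirpa, Itgam and Csf1r were lower in cDC1 in all 3 libraries. The exception was Clec12a, an inhibitory lectin of myeloid cells, at 176, 132 and 125 CPM in cDC1 and 74.9, 29.7 and 46.0 CPM in the reference, with log2 ratios of 2.15 (1.49 to 2.81) and 1.44 (0.92 to 1.95).

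The 12 lowest genes were Mgl2, Cpxm1, Clec10a, Timp1, Cd209d, Flrt3, Cald1, Sulf2, C1s1, Mcemp1, Dpt and Cthrc1. Among them Cpxm1, Timp1, Cald1, C1s1, Dpt and Cthrc1 had mean log2 ratios of -4.99, -4.28, -4.03, -3.89, -3.79 and -3.78. Against the trimmed reference these were -2.30, -2.58, -2.17, -1.21, -0.66 and -0.57. On Days 7 and 14 cDC1 held 1 and 1 UMIs of Cpxm1, 2 and 2 of Cald1, and 6 and 1 of Timp1 and of C1s1. Of these genes only Timp1 had wholly negative intervals on both days against the trimmed reference (-3.40 to -0.678 and -8.62 to -0.685). Those of Cpxm1 were -7.83 to 0.31 and -7.58 to 0.54. Dpt (dermatopontin) and Cthrc1 are matrix genes, and all 6 tested fibroblast markers were 2-fold or more lower in cDC1 (9.59% of all genes tested) but 0 of 5 tested against the trimmed reference (154 of all 2524 genes tested). The ratios of Cd209d, Flrt3, Mcemp1 and Sulf2 were -4.21, -4.08, -3.88 and -3.91 with the reference and -4.54, -4.09, -4.23 and -3.46 with the trimmed reference. Cd209d, a paralog of Cd209a, stood at 0, 30.4 and 17.1 CPM in cDC1 against 76.2, 269 and 665 CPM.

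Of 23 class I and cross-presentation genes, 18 were tested, 2 were 2-fold or more higher in cDC1 on both days (3.61% of all genes tested were), none was lower (9.59% of all), and the median log2 ratio was 0.33. The 2 were Psmb9, an immunoproteasome subunit, at 428, 429 and 396 CPM against 102, 105 and 101 CPM, and Psme1, a proteasome activator subunit, at 878, 791 and 719 CPM against 256, 278 and 279 CPM. Both were nearly level over the 3 days in either group. Their partners Psmb8 and Psme2, named after their values were seen, were higher by log2 1.34 and 1.39 on Day 7 and by 0.95 and 0.98 on Day 14. The class I chain H2-K1 and B2m stood at 838 and 943 CPM in cDC1 on Day 7, beside 1071 and 1018 CPM in the reference.

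Of 11 class II loading genes, all of which were tested, H2-Ob and March1 were higher (3.61% of all genes tested were) and Lgmn lower (9.59% of all were) by 2-fold or more on both days, with a median log2 ratio of 0.17. H2-Ob, which dampens peptide loading, stood at 264, 118 and 154 CPM against 73.6, 50.6 and 29.2 CPM. March1, a ubiquitin ligase that takes class II off the surface, stood at 231, 142 and 68.5 CPM against 52.9, 68.1 and 31.2 CPM. Lgmn, the lysosomal protease legumain, stood at 351, 142 and 24.5 CPM against 869, 350 and 162 CPM. Against the trimmed reference H2-Ob stayed past 2-fold, March1 did not, and Ctss and Ifi30, a class II protease and a lysosomal thiol reductase, joined Lgmn on the lower side, at mean log2 ratios of -1.21 and -1.48. The invariant chain Cd74 was alike, at 11344 against 11244 CPM on Day 7 and 19254 against 19863 CPM on Day 14.

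Of 23 cytokine and chemokine genes, 11 were tested, none was 2-fold or more higher and 5 were 2-fold or more lower on both days (9.59% of all genes tested), and the median log2 ratio was -1.21. Ccl4, a chemokine of the list named after its values were seen, stood at 4183, 764 and 240 CPM in cDC1 against 529, 579 and 226 CPM. Il1b stood at 1548, 784 and 650 CPM in cDC1 against 5776, 2352 and 2449 CPM, and Ccl9 at 76.9, 74.4 and 61.1 CPM against 815, 305 and 305 CPM. For Il6 and Ccl2 the mean log2 ratios of -2.98 and -2.46 became -0.85 and -0.21 against the trimmed reference, and for Cxcl10 -2.85 became -1.61. Against that reference 4 were lower of 10 tested (154 of all 2524 genes tested). These were Ccl6, Ccl9, Il1b and Osm, while Il6, Ccl2 and Cxcl10 were not called. Of 25 sensing genes measured, 8 were tested, with Tlr3 and Clec12a higher (3.61% of all genes tested) and 4 lower (9.59% of all): Mrc1, a mannose receptor, at 65.9, 70.98 and 41.6 CPM against 462, 448 and 616 CPM, Cd14 at 98.8, 149 and 176 CPM against 750, 343 and 701 CPM, and Nlrp3 and Clec4n.

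Among 22 receptor genes, 13 were tested, Kit and Flt3 were higher and 4 were lower (3.61% and 9.59% of all genes tested), Tgfbr2, Csf1r and Il2rg among them. Of 16 co-stimulation and maturation genes, 4 were tested and Tnfsf9 (4-1BB ligand) and Marcksl1 were lower (9.59% of all genes tested). Tnfsf9 stood at 121, 37.2 and 24.5 CPM against 327, 183 and 178 CPM. Cells with Ccr7, which mature dendritic cells carry, had been left out of the members but not of the reference. The trimmed reference also held no cell with Ccr7. Against it Ccl17, Marcksl1 and Tnfsf9 were lower, 3 of 5 tested (154 of all 2524 genes tested). Of 15 dead cell uptake genes 3 were tested (3.61% of all genes tested were higher and 9.59% lower): Havcr2 (TIM-3) was higher, at 54.9, 122 and 232 CPM against 52.9, 49.9 and 62.3 CPM, Lrp1 was lower, at 65.9, 33.8 and 24.5 CPM against 141, 202 and 168 CPM, and the third passed 2-fold on 1 day only. Of 20 dendritic cell transcription factor genes 14 were tested, with Irf8, Id2 and Batf3 higher (3.61% of all genes tested) and 4 lower (9.59% of all), Zeb2, Cebpb and Klf4 among them. Against the trimmed reference Batf3 and Klf4 lost the call, Irf4 was called lower, and the counts were 2 higher and 4 lower of 15 (81 higher and 154 lower of all 2524 genes tested). Of 19 interferon-stimulated genes measured 5 were tested and 0 were past 2-fold on both days, a count too small to read against the 3.61% higher and 9.59% lower of all genes tested.

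Markers of other cell types were looked for in the members in each library. The B cell genes Cd79a and Ms4a1 were at 0 in all members, and Ighm, the IgM heavy chain, stood at 65.9, 149 and 110 CPM against 56.8, 60.0 and 51.4 CPM in the reference. The plasmacytoid list summed to 154, 196 and 499 CPM in cDC1 and 378, 220 and 285 CPM in the reference. Its gene Siglech had 5 UMIs in 2 members on Day 7 and 20 UMIs in 4 members on Day 14, all in members with 1 receptor UMI and none in members with 2 or more. In those groups Irf8 stood at 1300 and 1297 CPM on Day 14. The list's Ly6d was called higher, but the call rested on 3 UMIs in cDC1 on Day 7 and on 6 cells on Day 14, and its mean log2 ratio was -0.30 among members with 2 or more receptor UMIs. Macrophage and monocyte genes summed to 2459, 2200 and 2122 CPM in cDC1 and 3397, 3692 and 5477 CPM in the reference. T and NK cell genes summed to 10.98, 101 and 315 CPM, against 99.4, 152 and 221 CPM in the reference, with 4 of 71 members at 3 or more UMIs on Day 14. Neutrophil genes summed to 32.9, 575 and 4.89 CPM in cDC1 and 214, 384 and 12.4 CPM in the reference. They were higher in cDC1 on Day 7 only, where 5 of 74 members held 3 or more UMIs. On Day 7 the trimmed reference stood at 571 CPM, near the cDC1 value. Langerhans cell genes summed to 121, 162 and 335 CPM in cDC1 and 288, 251 and 175 CPM in the reference, higher in cDC1 on Day 14 only, where 17 of 71 members held 3 or more UMIs and Cd207 is one of the 6 genes. Endothelial genes summed to at most 16.9 CPM. The part of these in the results was not tested.

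The cell cycle genes summed higher in cDC1 than in the reference on Days 7 and 14, while the shares of cells carrying them had overlapping intervals. At least 3 UMIs of the 20 listed genes were found in 18 of 74 cDC1 on Day 7 (24.3%, 15.1 to 35.7) and 14 of 71 on Day 14 (19.7%, 11.2 to 30.9), beside 13.5% (9.94 to 17.9) and 15.1% (11.5 to 19.4) of the reference. Thinned to 1000 UMIs the shares were 9.72% (3.999 to 19.0) and 7.14% (2.36 to 15.9), against 4.22% (2.27 to 7.11) and 4.75% (2.74 to 7.596), with overlapping intervals. The list summed to 1051 CPM in cDC1 on Day 7 (938 to 1175) against 531 CPM in the reference (494 to 569), and to 604 CPM (531 to 684) against 440 CPM (411 to 470) on Day 14. Of the list, Mki67, the proliferation marker, stood on Day 7 at 178 CPM (121 to 253) in members with 1 receptor UMI and at 57.3 CPM (23.0 to 118) in those with 2 or more, so members at the limit of the rule held most of its UMIs. Ube2c, a ubiquitin-conjugating enzyme of mitosis, was the single gene of 4 tested past 2-fold (3.61% of all genes tested were higher), at 0, 94.6 and 92.9 CPM against 0, 36.4 and 27.7 CPM, in 7 and 5 cells on Days 7 and 14. On Day 3 the list stood at 132 CPM against 125 CPM.

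Between Day 7 and Day 14, 40 of 1229 genes with a mean of at least 100 CPM in cDC1 (3.25%) were 2-fold or more higher on Day 14 and 56 (4.56%) were 2-fold or more lower, with a median log2 ratio of 0.01. Scaled by the median of ratios, the counts were 69 higher and 37 lower, so the balance turned, and among members with 2 or more receptor UMIs they were 95 and 93. The reference came from the same libraries, so its own values stand beside those of cDC1 as values only. The libraries differed in more than the day: the transcript Gm42418, which overlaps ribosomal RNA, took 12.9% of the members' UMIs on Day 7 and 5.31% on Day 14, and mitochondrial genes a median of 2.78% and 1.66%.

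Of 15 cDC1 identity genes tested, 1 was 2-fold or more higher on Day 14 (3.25% of all genes tested), 2 were lower (4.56% of all), and the median log2 ratio was -0.49. Cadm1 was the higher one, at 77.7 CPM in 15 of 74 cells on Day 7 and 198 CPM in 41 of 71 on Day 14 (log2 ratio 1.35, 0.67 to 2.09), and in the reference that ratio was 1.76 (0.64 to 3.08). Members with 1 receptor UMI carried this call, at 17.3 CPM on Day 7 (3.56 to 50.5) and 154 CPM on Day 14 (101 to 224), while those with 2 or more stood at 164 CPM (100 to 253) and 231 CPM (174 to 302), under 2-fold and with overlapping intervals. The lower ones were Tlr3, with a log2 ratio of -1.47 (-2.28 to -0.70) in cDC1 and -1.91 (-4.01 to -0.15) in the reference, and Ifi205, with -1.19 and -0.31. The reference ratio of Tlr3 rested on 11 UMIs on Day 7 and 4 on Day 14. Of 18 class I and cross-presentation genes 1 was lower and none higher, near the 4.56% and 3.25% of all genes tested. Cst3, at 11019 CPM on Day 7, was higher on Day 14, with a log2 ratio of 1.02 (0.96 to 1.08), while in the reference that ratio was 0.50 (0.43 to 0.57). Over the same days Cst3 went from 3217 to 8138 CPM in class II cells with 2 or more Ccr7 UMIs. In C1q macrophages it went from 1112 to 2440 CPM, so the rise was not particular to cDC1.

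The 8 genes with the highest Day 14 over Day 7 ratio were Krt1, Krt10, Lmna, Cd81, Jdp2, S100a10, BC028528 and H2afz. Lmna, a nuclear lamina protein, stood at 54.1 CPM in 13 cells on Day 7 and 369 CPM in 49 cells on Day 14, with a log2 ratio of 2.77 (2.02 to 3.61) against 1.62 (1.43 to 1.81) in the reference. Cd81, a tetraspanin, stood at 98.0 and 440 CPM, with a ratio of 2.17 (1.595 to 2.79) against 1.04 (0.77 to 1.30). It also went from 74.4 to 272 CPM in class II cells with 2 or more Ccr7 UMIs and from 101 to 368 CPM in C1q macrophages. H2afz, a histone variant, stood at 1768 and 4656 CPM in 70 of 74 and 68 of 71 cells, with a ratio of 1.40 (1.26 to 1.54) against 1.05 (0.97 to 1.14). S100a10 stood at 314 CPM in 39 cells and 1000.1 CPM in 63 cells, with a ratio of 1.67 (1.34 to 2.01) against 1.12 (1.02 to 1.22). The keratins Krt1 and Krt10 stood at 3.38 and 0 CPM on Day 7 and at 276 and 257 CPM on Day 14, but 59.3% and 72.4% of their Day 14 UMIs came from 1 cell. In the reference they stood at 313 and 260 CPM on Day 14. The keratinocyte list as a whole summed to 636 CPM in cDC1 and 763 CPM in the reference on Day 14, and to 16.9 and 6.07 CPM on Day 7.

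**Figure D5:**
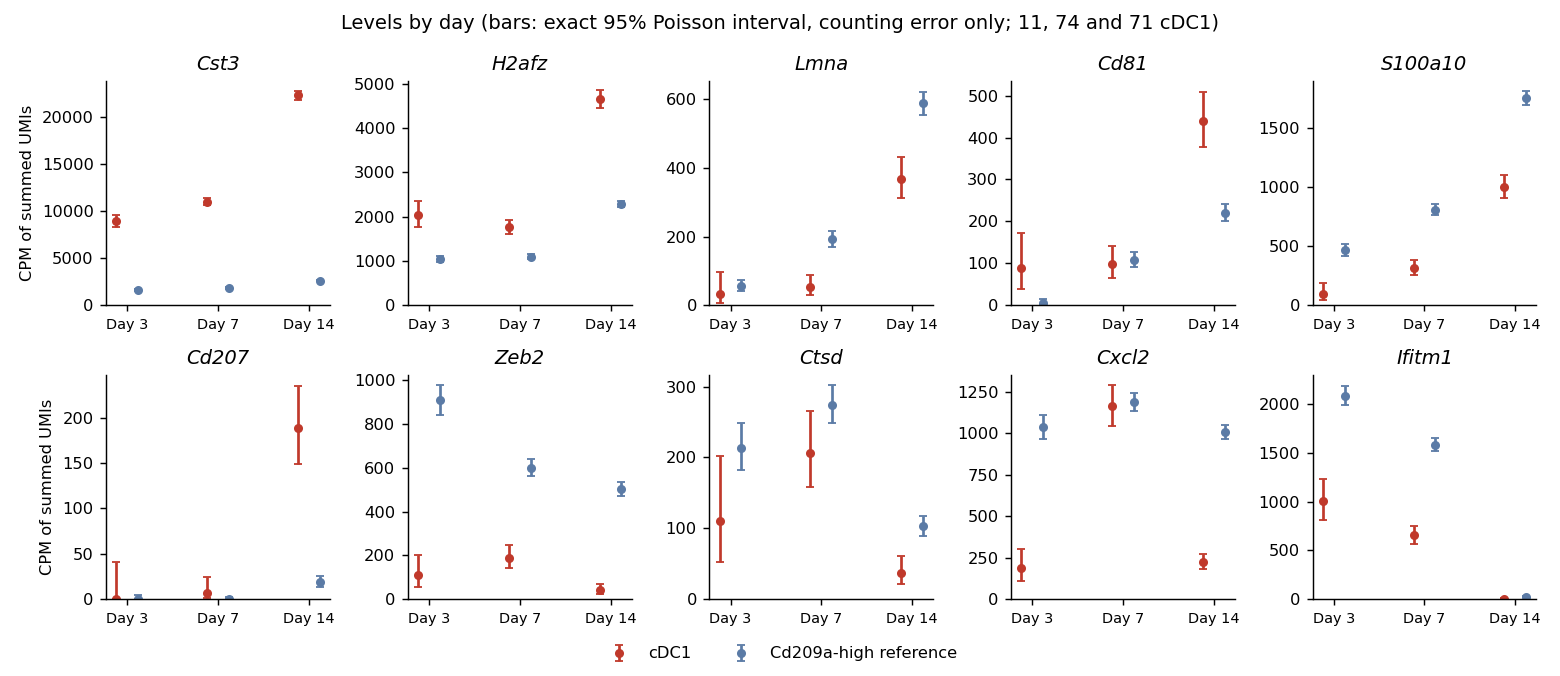
CPM of 10 genes in cDC1 and in the Cd209a-high reference on Days 3, 7 and 14 (1 library per day), with exact 95% Poisson intervals. Cst3 reaches 22325 CPM in cDC1 on Day 14, Cd207 reaches 188 CPM there from 0 and 6.76, and Ifitm1 goes from 1010 and 656 to 2.45 CPM in cDC1 and stands at 22.3 CPM in the reference on Day 14.

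The 8 lowest were Ifitm1, S100a9, Mmp12, Ptgs2, Thbs1, Ctsd, Cxcl2 and Zeb2. Ifitm1, an interferon-induced membrane protein, stood at 1010 CPM on Day 3, 656 CPM in 20 cells on Day 7 and 2.45 CPM (1 UMI) on Day 14, and in the reference at 1588 and 22.3 CPM on Days 7 and 14. Ctsd, the lysosomal protease cathepsin D, stood at 206 and 36.7 CPM, with a log2 ratio of -2.49 (-3.41 to -1.66) against -1.42 (-1.67 to -1.18) in the reference. Cxcl2, a neutrophil-attracting chemokine, stood at 1163 and 223 CPM, with a ratio of -2.39 (-2.74 to -2.05) against -0.24 (-0.33 to -0.15), and Zeb2 had a ratio of -2.19 (-3.06 to -1.38) against -0.26 (-0.39 to -0.13). Few cells carried several of these genes. For Mmp12, a macrophage elastase, 94.6% of the 74 Day 7 UMIs came from 1 cell, and all 5 Day 14 UMIs from 1 cell. Its ratio was -4.35. Without the highest cell of each library no Day 14 UMI was left. Day 14 was then set to 3 counts, so the value of -0.88 is only an upper bound. In the reference the ratio of Mmp12 was 2.74 (74.8 and 500.1 CPM). For Ptgs2, Thbs1 and Cxcl2 the highest Day 7 cell gave 73.2%, 59.1% and 41.0% of the UMIs, and the highest Day 14 cell 42.9%, 50% and 44.0%. Without the highest cell of both libraries the ratios were -2.37, -2.64 and -2.46. The reference ratios of Ptgs2 and Thbs1 were -1.88 and -1.40. S100a9, a neutrophil gene, stood at 324 CPM in 9 cells on Day 7 and at 0 on Day 14, in both groups at 0 on that day.

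Langerin transcripts in cDC1 were found almost wholly on Day 14. Cd207 stood at 0 CPM on Day 3, 6.76 CPM in 1 of 74 cells on Day 7 and 188 CPM in 15 of 71 cells on Day 14, and at 0, 0 and 18.3 CPM in the reference; it is named here after its values were seen. Thinned to 1000 UMIs, a Cd207 UMI was found in 0 of 72 cDC1 on Day 7, which allows up to 4.99% of cells with a UMI at that depth and says nothing of cells expressing the gene, and in 6 of 70 on Day 14 (8.57%, 3.21 to 17.7), beside 1.19% of the reference (0.324 to 3.01), 0.422% of macrophages and 0.0519% of fibroblasts on Day 14. The Day 7 and Day 14 intervals of cDC1 overlap. The 15 Day 14 members with a Cd207 UMI, set beside the other 56 as a description, stood at 242 CPM of Itgae (155 to 359) against 71.1 CPM (44.5 to 108) and at 1369 CPM of Naaa (1149 to 1619) against 788 CPM (692 to 893). Irf8, at 1389 and 1269 CPM, and Cadm1, at 211 and 194 CPM, were alike in both within their intervals. Langerhans cells of the epidermis also carry langerin, together with Epcam, which stood at 151 CPM in the 15 cells, 8 of its 15 UMIs coming from 1 cell, and at 9.69 CPM in the 56.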

How the data were processed

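Wound skin of 3 days was measured with 1 single-cell library per day (Chromium 3' v3.1). The files the authors deposited hold raw UMI counts for each gene in each barcode, without scaling; per the labels' processing notes these came from Cell Ranger 6.0.0 with mm10. Symbols were found for 32158 of 32285 Ensembl IDs, and 276 of 279 listed genes were matched. Kept barcodes had at least 500 UMIs, 200 genes and at most 10% mitochondrial UMIs. Totals per library were 38133650, 120940799 and 112713257 UMIs (Days 3, 7, 14).

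Counts were summed over the cells of a group in a library and divided by their total (CPM, per 1000000 UMIs). Levels and ratios have exact Poisson or conditional binomial 95% intervals, and shares Clopper-Pearson intervals; all cover counting error only. A group at 0 was set to 3 counts per library for a ratio. With 1 library per day no test between days was possible, none was run between cell groups, and libraries with under 20 cells in either group (Day 3) entered no gene count. Genes were called at 2-fold in the same direction on Days 7 and 14 (mean of at least 50 CPM) or between those days (mean of at least 100 CPM and 10 UMIs in cDC1). The text names list members past 2-fold on both days (up to 6 per direction), the 12 highest and 12 lowest over the reference and the 8 highest and 8 lowest between days, leaving out mitochondrial and ribosomal genes and Gm42418; other names are marked, belong to lists of other cell types, or were picked after their values were seen (H2-K1, B2m, Cd74, Mki67, Siglech, Psmb8, Psme2). The cell rule, the 22 gene lists and the comparisons were chosen with earlier results of these data known. Doublets were scored by the share of simulated doublets among 50 neighbours and were removed only as an alternative. The calling step was tested on simulated data. Python 3.11.15, numpy 2.4.6, scipy 1.17.1, pandas 2.3.3, scikit-learn 1.9.0 and matplotlib 3.10.9 were used. A few items are not reported here.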

Additional observations from a re-analysis of the deposited data

How the results depend on the processing

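No paired analysis was possible because the days share only replicate number 1. For cDC1 against the reference, the main counts were 93 genes higher and 247 lower. The lower count was 154 with the trimmed reference and 161 without called doublets; the higher count was 163 when scaled without the 50 most abundant genes, 147 without the Day 7 library and 177 without the Day 14 library, where 1 library decides. With no filter on low values they were 551 and 789 of 15610 tested, and at a mean of at least 200 CPM 17 and 58 of 608 tested. At that level 7 cDC1 and 3 cDC2 identity genes were past 2-fold, since fewer genes are tested. The number of list genes tested there is not given. Between days the main counts were 40 higher and 56 lower: 95 and 93 among members with 2 or more receptor UMIs, 72 and 136 without the 50 most abundant genes, 12 and 10 at 300 CPM, and 680 and 1484 with no filter. Scaling by the median of ratios gave 69 and 37, so 65.1% of the called genes were higher in place of 41.7%; it moves the median between-day log2 ratio of all genes tested from 0.01 to 0.15. The cause was not tested. With 2 or more receptor UMIs asked for, Ly6d over the reference was -0.30 (log2), which was reversed. Krt10 between days came out at -0.52 (log2). All Day 7 members were at 0 UMIs of Krt10 and were set to 3 counts, so this value is a lower bound and shows no reversal. Shares moved to 0.0864% on Day 3 with a mitochondrial limit of 5% (the Day 3 members had a median of 6.21%), to 0.139% and 0.263% on Days 7 and 14 with 2 or more receptor UMIs, and with thinning to 0.103%, 0.180% and 0.174% (1000 UMIs) and 0.285% on Day 14 (2000 UMIs). The other 57 values of these summaries moved by less than 1.5 times or stayed within their interval. Leaving out the highest cell of each gene and library was added after seeing the data.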

Other observations

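Cells with both a receptor of the cDC1 branch and the maturation receptor gene Ccr7 were outside the rule, and their values stand here without comparison. Of class II cells, 1, 10 and 13 held a UMI of Ccr7 and one of Xcr1 or Clec9a on Days 3, 7 and 14. At least 3 of Irf8, Naaa, Wdfy4, Batf3 and Itgae were detected in 0 of 1, 1 of 10 and 7 of 13 of them. Among cells with 2 or more Ccr7 UMIs, an Xcr1 or Clec9a UMI was seen in 1.04% on Day 3 (0.0264 to 5.67), 2.52% on Day 7 (1.09 to 4.90) and 7.83% on Day 14 (3.64 to 14.3), at median depths of 7231, 3547 and 5379 UMIs.

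Plac8 stood at 1361, 676 and 205 CPM in cDC1, and at 567 and 168 CPM in the reference on Days 7 and 14. Cd3g, a T cell receptor component, stood at 152 CPM in cDC1 on Day 14, with 66.1% of its UMIs in 1 of 3 cells. These genes were picked after their values were seen.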
